A study of Mus musculus with 2 samples.

Results

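Arg1-high spots were studied in 1 section of a mouse melanoma. Expression was measured with Visium CytAssist: probe pairs that bind a transcript side by side are joined in the formalin-fixed section, then transferred to a slide whose spots each carry their own barcode. A spot is a small region that can hold several cells. Of 3066 spots under tissue, with 88735936 UMIs in all, 2671 had at least 5000 unique molecular identifiers (UMIs), and the 267 of these with the highest Arg1 share, the top 10%, were taken as Arg1-high. They were set against 94 control spots that held no Arg1 UMI but whose summed C1qa, C1qb and C1qc, the genes of the complement component C1q that tissue macrophages make, reached the 75th percentile of the section. The median Arg1 level of the section was 0, since 55.5% of kept spots had no Arg1 UMI, so being at the median meant having none. The tumour was grown from B16.F10, a pigmented melanoma line, in a WT mouse (Csnk2bfl/fl), which carries a floxed Csnk2b gene and no Cre. A section from a KO mouse (Foxp3-Cre × CK2b-fl/fl), where Cre driven by Foxp3 acts in regulatory T cells, received the same rule and is given beside the WT values. Both tumours were untreated, came from mice aged 8 to 16 weeks and were taken on day 15 after inoculation. With 1 section per genotype there is no test: spots of a section are not replicates, intervals cover counting error alone, and genotype, animal and section cannot be told apart.

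Arginase 1 splits arginine into ornithine and urea, and ornithine is the entry point of polyamine synthesis. In mouse tumours the gene is typically expressed by macrophages and other myeloid cells, and it can be induced by type 2 cytokines, by lactate and by low oxygen. Cells short of oxygen stabilise hypoxia-inducible factors, which switch on genes for glucose uptake, glycolysis, new vessels and collagen hydroxylation.

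Levels are given in CPM, a gene's UMIs for every 1000000 UMIs of the same spot or of all spots of a group together. The Arg1 level of the Arg1-high spots ran from 2261 through a median of 3779 to 10192 CPM, or from 13 to 265 UMIs per spot. The 3 spots just inside the limit had 2261, 2287 and 2307 CPM, and the 3 just outside had 2250.4, 2239.8 and 2227 CPM, so the limit cuts a continuous range. These spots held 69.8% of the Arg1 UMIs of all kept spots with 4.39% of their total UMIs. The gene (ENSMUSG00000019987) lies on chromosome 10, 24915207 to 24927470 in GRCm38. The spots were selected on their measured Arg1 CPM, and the controls on Arg1 and C1q CPM, so the levels of these genes are a description.

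The Arg1-high spots lay together. They formed 17 patches of touching spots, of which 1 held 230 spots, 1 held 17, and 11 were single spots. Of the kept neighbours of Arg1-high spots, 79.3% were themselves Arg1-high, against 10.2% of the neighbours of all kept spots. Split at its median row and column, the section held 167, 79, 20 and 1 of them in its 4 quadrants. The controls fell into those quadrants as 55, 1, 36 and 2, so ratios within a quadrant could be had for those with 167 and with 20 Arg1-high spots. No control touched an Arg1-high spot, and the median distance to the nearest one was 8 steps on the grid (2 to 14). Within 2 steps of a position without tissue lay 44.6% of the Arg1-high and 62.8% of the control spots.

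**Figure D1:**
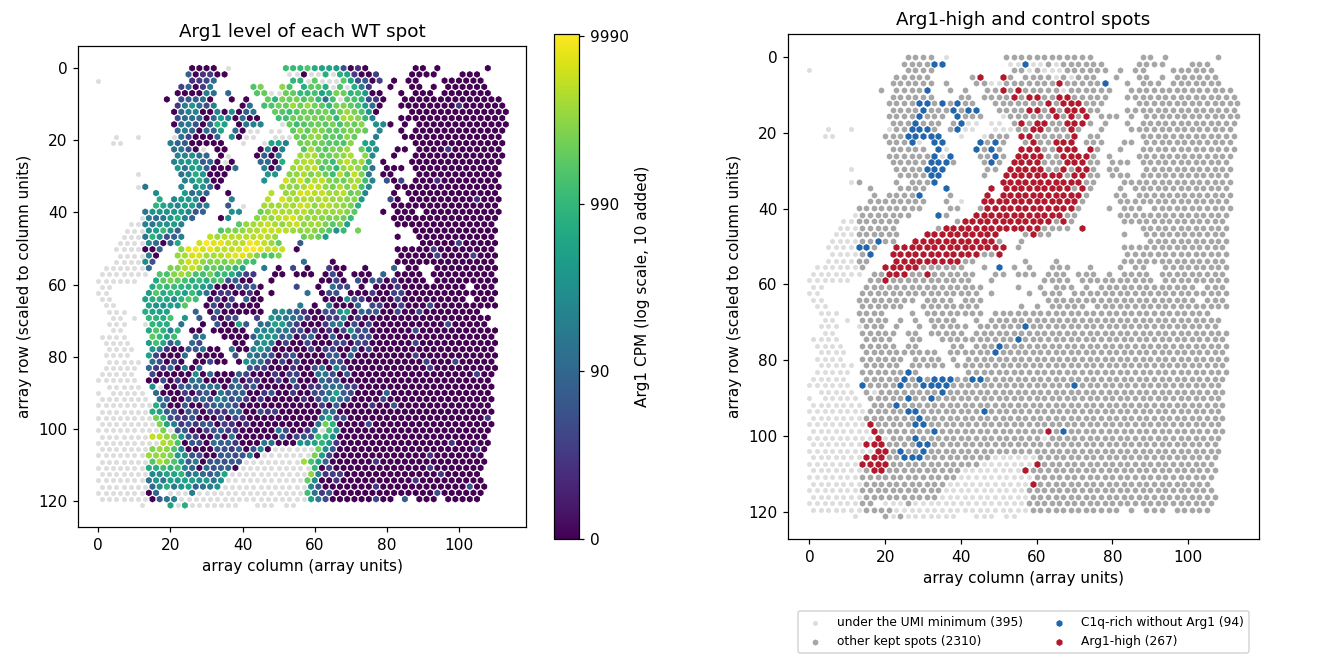
The left map colours each kept spot of the WT section by its Arg1 level in CPM on a log scale, placed by array column and row, and the right map marks the 267 Arg1-high and the 94 control spots. The largest patch of 230 Arg1-high spots runs as a curved band, with the patch of 17 spots apart from it, and the controls sit elsewhere.

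Depth and C1q were close in both groups. The median spot held 14630 UMIs among Arg1-high and 14648 among control spots, against 33342 in the other kept spots, those in neither group. Summed C1q had medians of 3112 and 3133 CPM, against 302 CPM elsewhere. The rule asked nothing of C1q in the Arg1-high spots, yet 218 of 267 (81.6%) also reached the 75th percentile. A gene counted as measured with at least 200 UMIs over both groups, as 12 of the 15 genes of a general macrophage list did. Among them Cd68, which encodes a lysosomal protein of macrophages, stood at 564 against 596 CPM, and the 15 genes summed to 3928 against 3541 CPM. Fewer cells of a type and less RNA per cell cannot be told apart in a spot.

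Of 5461 measured genes, 363 (6.65%) stood 2-fold or more above the control level in Arg1-high spots and 480 (8.79%) stood as far below it, and the median log2 ratio was -0.25. Fibrillar collagens and other matrix genes took a large part of the RNA of the Arg1-high spots: a fibroblast and matrix list summed to 126922 CPM there, 55894 in controls and 9364 in the other kept spots. Scaling by trimmed mean of M values (TMM), which limits the weight of such genes, moved every log2 ratio up by 0.40 and turned the split into 621 higher and 224 lower genes, so that 73.5% of called genes were higher in place of 43.1%. Median-of-ratios size factors gave 611 and 235 (72.2%), and the total without the 50 most abundant genes gave 448 and 354 (55.9%). Directions below are relative to total UMIs, and the list medians are to be read against -0.25.

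Serpinb2, which encodes plasminogen activator inhibitor 2, an inhibitor of urokinase made by activated macrophages, had the highest ratio among genes with at least 500 UMIs over both groups. It lies on chromosome 1, 107500892 to 107525600. Its 1810 UMIs over the Arg1-high spots against 10 over the controls gave 467 against 5.95 CPM, a difference of 78.5-fold (95% interval 42.6 to 164). By spot, its level ran from 0 through a median of 336 to 2733 CPM over the Arg1-high spots, and from 0 through 0 to 178 CPM over the control spots. A UMI was found in 246 of 267 and 9 of 94 spots, and the groups overlapped, since some Arg1-high spots had none.

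Next in that order was Egln3, an oxygen-sensing prolyl hydroxylase that hypoxia itself induces, at 24.0-fold (95% interval 13.6 to 46.7). Its ratio was 112 in the quadrant with 20 Arg1-high spots and 13.4 in that with 167. For this gene, its level ran from 0 through a median of 127 to 2178 CPM over the Arg1-high spots, and from 0 through 0 to 375 CPM over the control spots. Nos2, the inducible nitric oxide synthase, which uses the same substrate as arginase, was higher by 18.0-fold (95% interval 12.2 to 27.6), and its level ran from 0 through a median of 176 to 1524 CPM over the Arg1-high spots, and from 0 through 0 to 178 CPM over the control spots. It was detected in 222 of the 267 spots chosen for Arg1 and 24 of the 94 controls. Ndufa4l2, a mitochondrial protein induced by hypoxia-inducible factors, was higher by 14.1-fold (95% interval 11.7 to 17.1), with 264 of 267 spots positive. In each case the Arg1-high median lay above the control median, and the ranges overlapped.

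The other genes among the 15 highest had varied roles. Tnfaip6, a hyaluronan-binding protein induced by inflammatory cytokines, was 15.3 times the control level. Htra3, a secreted serine protease, reached 2824 against 229 CPM, with ratios of 2.44 in the quadrant with 20 Arg1-high spots and 12.9 in that with 167. Ltc4s, the enzyme that makes leukotriene C4, was at 10.9 times and Ptgis, the prostacyclin synthase, at 8.84 times the control level. Ccl24, a chemokine for eosinophils made by alternatively activated macrophages, was at 10.7 times. Cd14, a co-receptor for bacterial lipopolysaccharide on monocytes and macrophages, was higher by 9.29-fold (95% interval 6.81 to 13) although summed C1q was alike. The chemokine scavenger receptor gene Ackr3 was at 10.0 times, Rarres2, which encodes the chemoattractant chemerin, at 9.12 times, the joint lubricant gene Prg4 at 9.60 times, Dmkn at 17.9 times and the homeobox gene Irx1 at 10.6 times.

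**Figure D2:**
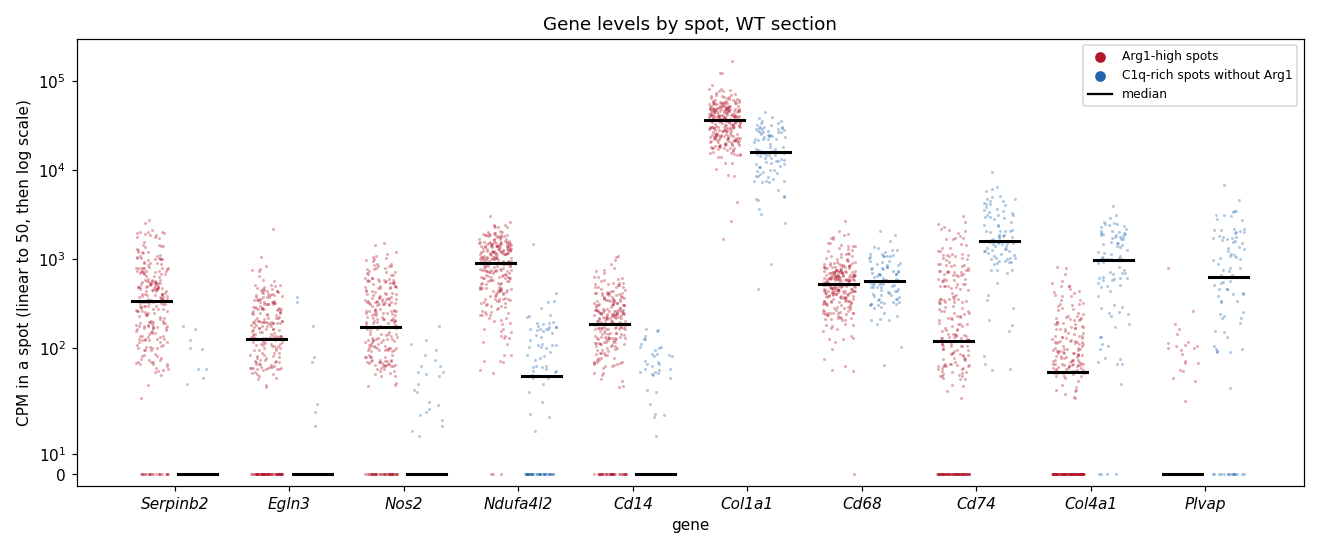
Each point is 1 spot of the WT section and the vertical axis gives its level in CPM, linear up to 50 and logarithmic above; black bars are medians. Serpinb2, Egln3 and Nos2 have control medians of 0, Cd68 has similar medians of 524 and 573 CPM, and Cd74, Col4a1 and Plvap are lower in Arg1-high spots.

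Hypoxia genes were higher as a group. Of 14 measured, 12 were at least 2-fold higher, none was lower, and the median log2 ratio was 1.86. Vegfa, the vessel growth factor, was higher by 6.43-fold (95% interval 5.15 to 8.14). P4ha1 and P4ha2, the catalytic subunits of the hydroxylase that stabilises collagen, stood at 458 against 161 CPM and 442 against 108 CPM. The lowest ratio of the list was that of Kdm3a, a histone demethylase, at 1.40-fold (95% interval 1.06 to 1.89), with 0.982 in the quadrant with 20 Arg1-high spots and 2.11 in that with 167. By spot the summed list ran from 604 through 2151 to 7538 CPM over Arg1-high spots and from 181 through 744 to 2997 CPM over controls.

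Hypoxia-inducible factors bind a short core, of which the form ACGTG, read as CACGT on the opposite strand, was searched for. It overlaps the E-box CACGTG, which other factors bind. The promoters of 3 of these genes are shown from RefSeq (GRCm38.p6, 250 bases before to 50 after the start site, on the gene's strand), with every match in capitals, because their levels were all above the control level in the Arg1-high spots. These 3 were chosen after the matches were seen.
Egln3, chr12:54203825-54204124, minus strand: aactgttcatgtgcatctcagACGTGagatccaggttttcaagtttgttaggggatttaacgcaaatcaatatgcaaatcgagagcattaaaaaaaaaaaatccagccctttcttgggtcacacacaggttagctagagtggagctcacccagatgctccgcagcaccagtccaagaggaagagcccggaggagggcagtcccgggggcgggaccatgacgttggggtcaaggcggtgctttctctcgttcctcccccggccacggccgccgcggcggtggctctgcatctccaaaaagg
P4ha1, chr10:59323046-59323345, plus strand: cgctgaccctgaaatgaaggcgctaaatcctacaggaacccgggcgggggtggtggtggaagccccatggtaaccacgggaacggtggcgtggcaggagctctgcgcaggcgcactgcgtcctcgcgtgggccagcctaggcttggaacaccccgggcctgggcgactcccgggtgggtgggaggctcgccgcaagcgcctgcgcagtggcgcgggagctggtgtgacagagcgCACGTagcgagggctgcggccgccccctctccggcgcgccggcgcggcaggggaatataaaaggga
P4ha2, chr11:54100674-54100973, plus strand: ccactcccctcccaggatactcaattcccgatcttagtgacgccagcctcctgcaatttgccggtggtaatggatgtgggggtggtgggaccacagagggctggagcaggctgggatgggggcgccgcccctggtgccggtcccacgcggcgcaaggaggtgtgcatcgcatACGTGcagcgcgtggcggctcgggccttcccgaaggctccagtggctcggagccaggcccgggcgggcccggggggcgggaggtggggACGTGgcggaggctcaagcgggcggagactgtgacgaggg
Of the 14 measured hypoxia genes 12 matched the promoter table by symbol, with 16 promoters, of which 10 (62.5%) held at least 1 match on either strand. The share was 19.6% of all 32851 promoters and 27.0% of the 5617 promoters of measured genes. Among all genes at least 2-fold higher in Arg1-high spots it was 26.3% of 323 promoters, and among those at least 2-fold lower 23.3% of 446. The share among all higher genes was thus near that of measured genes, and a match is a description of letters, not of binding. The hypoxia list was chosen as genes that respond to low oxygen. Its share may reflect that choice and is no result about these spots.

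All 13 measured glycolysis genes were above the control level, and 5 of them passed 2-fold; the list's median log2 ratio was 0.66. Slc16a3, which encodes the lactate exporter MCT4, was higher by 6.98-fold (95% interval 5.66 to 8.70). Pkm and Gpi1, enzymes of the pathway itself, were at 1.47 and 1.48 times the control level, and Hk1, a hexokinase, at 1.03-fold (95% interval 0.864 to 1.23). Against the other kept spots the order turned: the list summed to 8750.1 CPM in Arg1-high, 5534 in control and 9360.2 in other spots. Of 9 respiratory chain genes, 2 were at least 2-fold lower and none higher, with a median of -0.75. Atp5b, a subunit of the ATP synthase, stood at 503 against 1122 CPM.

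Arginine and polyamine genes beside Arg1 differed in direction. Of 14 measured, 2 were at least 2-fold higher, Nos2 and Azin2, which encodes an antizyme inhibitor, and 1 was lower. The lower gene was Atp13a2, a lysosomal polyamine exporter, at 2.01-fold (95% interval 1.75 to 2.31) lower. Its ratio was 0.649 in the quadrant with 20 Arg1-high spots and 0.666 in that with 167, under 2-fold in each. Azin2, at 2.97 times the control level, was outside the naming rule and was picked to complete this count. Odc1, the enzyme that turns ornithine into putrescine, was chosen as the next step after arginase; it had 36 and 21 UMIs over the groups, under the 200 needed. Oat, which turns ornithine toward proline, stood at 227 against 249 CPM, and Oaz1, the antizyme that restrains polyamine synthesis, at 536 against 705 CPM. The median of the list, -0.26, was next to that of all measured genes. With TMM scaling, which moves all genes alike, it was 0.14.

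Macrophage genes differed gene by gene while C1q was matched. Of 12 measured in the general list, 3 were at least 2-fold higher, 1 was lower, and the median log2 ratio was -0.03, above the -0.25 of all measured genes. With TMM scaling, which moves all genes alike, it was 0.38. Cd14 was the highest, and the lowest was Aif1, which encodes the macrophage protein Iba1, at 10.2-fold (95% interval 7.68 to 13.6) lower. Ctss, a protease of antigen processing, was at 1.52 times and Fcer1g, a signalling chain of Fc receptors, at 0.758 times the control level. Among 13 resident macrophage genes, 3 were at least 2-fold higher and 3 lower. Pf4, a chemokine made by tissue macrophages, was higher by 3.39-fold (95% interval 3.22 to 3.56), F13a1, a coagulation factor subunit, by 3.05-fold (95% interval 2.80 to 3.32), and Lyve1, a hyaluronan receptor, by 9.09-fold (95% interval 5.74 to 15.3). Selenop, a selenium carrier, was lower by 2.03-fold (95% interval 1.95 to 2.11). Its direction was not stable: the ratio was 1.26 in the quadrant with 20 Arg1-high spots and 0.446 in that with 167, 1.33 in the patch of 17 spots, 2.16 with controls from the 50th C1q percentile and 3.68 against all spots without Arg1. Cd68 and Fcer1g also turned between these quadrants, at 1.70 and 0.793 and at 1.24 and 0.620. Pf4, F13a1 and Aif1 kept their direction there, but their size varied beyond the counting intervals. Pf4 was at 7.47 and 2.41, F13a1 at 6.13 and 2.12, and Aif1 at 0.491 and 0.0715. Lyve1 had a ratio only in the quadrant with 167, at 4.65.

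Of 7 measured monocyte genes 4 were at least 2-fold higher and none as far lower, with a median of 1.67. Fn1, which encodes fibronectin and is also made by fibroblasts, stood at 5693 against 1635 CPM, and Thbs1, a matrix protein released by platelets, monocytes and fibroblasts, at 2806 against 882 CPM. Clec4d, a myeloid lectin, was higher by 6.85-fold (95% interval 5.74 to 8.23). Ccr2, the receptor that draws monocytes from blood, stood at 0.576 times the control level, but its direction turned within the section, with 2.36 in the quadrant with 20 Arg1-high spots and 0.393 in that with 167. In the list of lipid-associated macrophage genes, 4 of 17 were at least 2-fold higher, among them Spp1, the secreted protein osteopontin (4.80 times), and Ctsl, a lysosomal protease (3.26 times), while 3 were lower, among them the lipase Lpl (4.20-fold lower). The ratio of Lpl was 1.99 in the quadrant with 20 Arg1-high spots and 0.106 in that with 167, and 1.84 against all spots without Arg1. Ctsb and Ctsd, also lysosomal proteases, were at 0.972 and 1.06 times.

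Neutrophil markers were scarce in both groups. The 15 genes of the list summed to medians of 124 CPM (0 to 1605) in Arg1-high and 80.4 CPM (0 to 633) in control spots. Mmp9, a gelatinase that macrophages make too, was the only 1 of the 15 that was measured, at 3.08-fold (95% interval 2.06 to 4.80) higher. Of the granule genes that mark the lineage, Ngp and Ltf had 0 UMIs in the Arg1-high spots and Camp had 7. S100a8 had 81 against 9 UMIs and S100a9 had 74 against 18. These marker genes were named from the marker list whatever their value, and the part of neutrophils in the result was not tested.

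Chemokines lay on both sides of the control level. Of 12 measured, 5 were at least 2-fold higher and 3 lower. Ccl6 and Ccl9, constitutive chemokines of mouse myeloid cells, stood at 3846 against 1063 CPM and 1282 against 319.6 CPM. Cxcl3, a neutrophil attractant, had 264 UMIs against 2, a ratio of 57.3 with a counting interval of 15.7 to 475. Ccl8, a chemokine of resident macrophages, was lower by 4.04-fold (95% interval 3.69 to 4.42). Among inflammatory mediators 3 of 17 were measured, and the minimum over both groups favours genes high in the larger Arg1-high group. Il33, an alarmin of stromal cells, was 4.88 times the control level (1.83 in the quadrant with 20 Arg1-high spots and 4.16 in that with 167). Ptgs2, the inducible cyclooxygenase, was at 5.71 times and Il1rn, the interleukin 1 receptor antagonist, at 1.5 times.

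Type 2 response genes were split: of 4 measured, 2 were at least 2-fold higher, Ccl24 and Il4ra, the interleukin 4 receptor chain, at 2.47 times, and 2 were lower. The ratio of Il4ra was 2.87 in the quadrant with 20 Arg1-high spots and 1.65, under 2-fold, in that with 167. Retnla, a secreted protein typical of interleukin 4 exposure, was at 54.0 against 134 CPM. Within the section its ratio was 23.6 in the quadrant with 20 Arg1-high spots and 0.174 in that with 167. Clec10a, a lectin of the same response, was at 0.299 times the control level over all spots, and at 1.20 and 0.196 in the same quadrants, so the direction of both turned within the section.

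Transcripts of MHC class II genes, which serve antigen presentation, were lower than in these controls. All 5 measured genes were lower by 2-fold or more, and the median log2 ratio was -2.31. Cd74, the invariant chain, was at 306 against 1766 CPM. By spot, its level ran from 0 through a median of 122 to 3089.6 CPM over the Arg1-high spots, and from 57.4 through 1598 to 9667 CPM over the control spots, with overlapping ranges. H2-Aa, H2-Ab1 and H2-Eb1, the chains of the class II molecules, were lower by 6.12-fold (95% interval 5.23 to 7.18), 4.80-fold and 4.98-fold. In the quadrant with 20 Arg1-high spots none of these 4 passed 2-fold, with ratios from 0.542 to 0.657, against 0.158 to 0.184 in that with 167. The class II sum was 459 CPM in the patch of 230 spots and 1795 CPM in that of 17. The Arg1-high level was close to that of the other kept spots, 565 against 414 CPM for the list, and it was the controls that stood out with 3046 CPM. Set against all spots without Arg1, whatever their C1q, the list's median turned to 1.49, and with controls from the 50th C1q percentile it was 0.04.

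Genes of the interferon gamma response followed: 5 of 10 measured were at least 2-fold lower, none was higher, and the median was -1.06. Cxcl10, a T cell attractant, was lower by 6.75-fold (95% interval 5.75 to 7.95). For MHC class I, 3 of 10 were at least 2-fold lower, with B2m, the light chain, at 2603 against 4356 CPM. No T cell gene reached the minimum for measurement; the 16 genes summed to 32.3 CPM in Arg1-high, 207 in control and 33.6 in other spots. Ccl5, a chemokine of T and myeloid cells, was lower by 3.22-fold (95% interval 2.51 to 4.15). Both measured B and plasma cell genes were lower, and Igkc, the kappa light chain of antibodies, had 42 against 747 UMIs over the groups. Ighm, the other of the 2 measured among 9, had 8 against 274. Both reached the minimum for measurement only through the controls, which favours a lower ratio. A UMI of Igkc was found in 15 Arg1-high and 35 control spots, with a control median of 0 and a highest control level of 12104.5 CPM. It was 2.99-fold lower in the quadrant with 20 Arg1-high spots and 110-fold lower in that with 167.

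Vessel genes had the lowest list medians among lists with at least 3 measured genes. All 7 measured endothelial genes and all 3 of pericytes and smooth muscle were at least 2-fold lower, with medians of -4.66 and -4.57. Only 7 of 14 and 3 of 9 genes of these lists were measured. A gene scarce in the Arg1-high spots reached the minimum for measurement only through the controls, which favours lower genes in these counts. Summed without that minimum, the 14 and the 9 genes stood at 182 against 2592 CPM and 43.9 against 644 CPM. Plvap, the protein of endothelial diaphragms, had 31 UMIs over 267 Arg1-high spots and 1365 over 94 controls, a difference of 102-fold (95% interval 71.2 to 149.99). By spot, its level ran from 0 through a median of 0 to 809 CPM over the Arg1-high spots, and from 0 through 632 to 6917 CPM over the control spots, with a UMI in 22 and 78 spots. Egfl7, secreted by endothelium, was lower by 40.3-fold (95% interval 28.2 to 59.6). The basement membrane collagens Col4a1 and Col4a2 were lower by 12.5-fold (95% interval 11 to 14.2) and 13.8-fold (95% interval 11.9 to 16.2). The size of the Plvap and collagen differences varied within the section, beyond these counting intervals. Plvap was 10.1-fold lower in the quadrant with 20 Arg1-high spots and 209-fold lower in that with 167. Col4a1 was 2.76-fold and 19.5-fold lower in the same quadrants, and Col4a2 4.21-fold and 20.2-fold lower. By spot the endothelial sum ran from 0 through a median of 150.4 to 2124 CPM over Arg1-high spots and from 0 through 2438 to 12269 CPM over controls. The list summed to 182 CPM in Arg1-high spots against 667 CPM in the other kept spots, so the Arg1-high spots were below the rest of the section as well.

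Of 12 measured type I interferon genes 3 were at least 2-fold lower and none higher (median -0.45), with the antiviral gene Bst2 at 317 against 765 CPM. Oasl2 and Irf7, also among the most abundant of the list, were level, at 315 against 321 CPM and 230 against 228 CPM. With TMM scaling the list's median was -0.05, against 0.15 for all measured genes. Of 7 measured genes of the ATF4 amino acid stress response 3 were at least 2-fold lower and none was above 1 (median -0.94), with Phgdh, the first enzyme of serine synthesis, at 20.9 against 77.4 CPM and Shmt2, a mitochondrial serine enzyme, at 120.04 against 203 CPM. In the TGF-beta list 1 of 7 was at least 2-fold higher and 2 as far lower, and Tgfb1 itself was at 273 against 400.5 CPM, with ratios of 1.11 in the quadrant with 20 Arg1-high spots and 0.493 in that with 167. None of 5 measured immune checkpoint genes was past 2-fold, among them Sirpa, a myeloid receptor for CD47, at 293 against 421 CPM. The 7 measured housekeeping genes had a median of -0.44, with 1 at least 2-fold lower.

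Other tissue types were also lower. All 4 measured adipocyte genes were, with Fabp4, the lipid carrier of fat cells and capillaries, at 28.5-fold (95% interval 21.8 to 37.9) lower, and Car3, an abundant carbonic anhydrase of fat and muscle, at 21.4-fold (95% interval 17.3 to 26.8). Only 4 of the 11 genes of the adipocyte list were measured, with the same limit as for the vessel lists. Cilp, a cartilage and matrix protein, was lower by 55.2-fold (95% interval 37.3 to 85.2) and Mgp, an inhibitor of calcification, by 7.29-fold (95% interval 6.0 to 8.91). In the same quadrants Cilp was 27.5-fold and 37.9-fold lower, and Mgp 3.62-fold and 10.7-fold lower. By spot the adipocyte sum ran from 0 through a median of 65.3 to 4383 CPM over Arg1-high spots and from 0 through 365 to 15007 CPM over controls. The controls thus held fat, vessel and plasma cell transcripts, and their part in the ratios was not tested. All 9 measured melanocytic and all 11 proliferation genes were at least 2-fold lower, with medians of -1.98 and -1.54. Dct, a pigment enzyme that marks the tumour cells, was at 2107 CPM in Arg1-high, 8128 in control and 24105 in other spots. Mki67, a marker of dividing cells, was at 74.6 against 237 CPM.

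Matrix and fibroblast genes were mostly higher. Of 16 in the fibroblast list 12 were above 1, 7 were at least 2-fold higher and none as far lower (median 0.86). Col1a1 stood at 40417 against 17586 CPM and Col3a1 at 37626 against 12059.6 CPM. Among genes of fascia fibroblasts, the cells of loose connective tissue, 10 of 13 measured were at least 2-fold higher and 1 lower, with a median of 1.71; Dpt, a small matrix protein, and Clec3b, the plasminogen-binding tetranectin, were at 3.27 and 3.85 times the control level. Of 14 measured proteases and inhibitors of matrix 7 were at least 2-fold higher and none as far lower. Mmp2, a gelatinase, was higher by 2.58-fold (95% interval 2.39 to 2.78), with ratios of 1.17 in the quadrant with 20 Arg1-high spots and 3.73 in that with 167. Within an equal range of fibroblast and matrix CPM, which left 48 Arg1-high and 25 control spots, Col1a1 and Col1a2 were at 0.871 and 0.914 times the control level. Both are among the most abundant genes of the list that set this range. The matching thus pulls their ratios toward 1, and these values are no separate result.

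**Figure D3:**
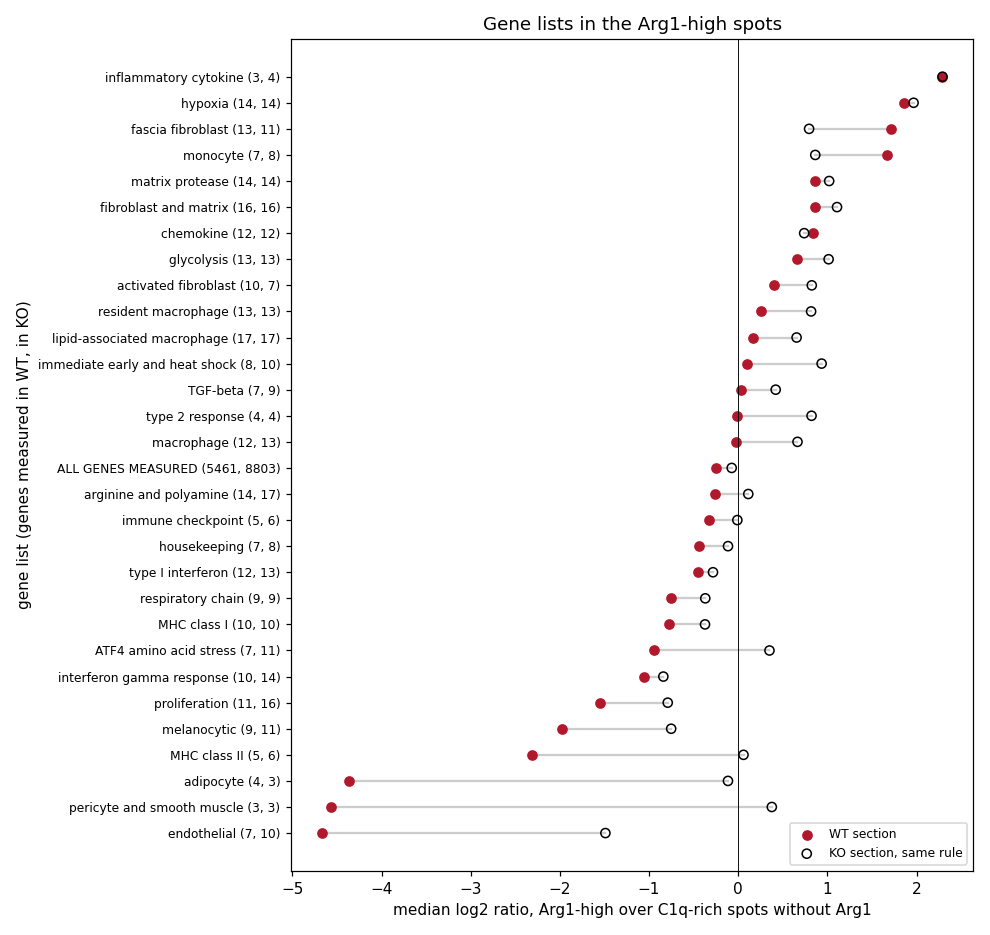
Points give the median log2 ratio of each gene list with at least 3 measured genes in both sections, with the number measured in WT and KO beside the name. In the WT section the endothelial list is lowest at -4.66 and the inflammatory cytokine list highest at 2.28, and the hypoxia list has nearly equal medians of 1.86 and 1.97.

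The Arg1-high spots were not alike. The 49 that fell below the C1q percentile had a similar Arg1 level to the 218 above it, 4114 against 4221 CPM, but lay at the border more often: 38 of 49 (77.6%) touched a kept spot outside the group, against 91 of 218 (41.7%). Their hypoxia list summed to 4648 against 2201 CPM and Vegfa to 716 against 207 CPM. Tnc, a matrix protein of wounds and tumours, was at 1975 against 183 CPM, Cxcl3 at 196 against 32.6 CPM and Ptgs2 at 225 against 20.1 CPM. The fascia fibroblast list was the lower, 2005 against 7731 CPM, as did Lyve1 (2.38 against 131 CPM) and Ltc4s (20.2 against 277 CPM). MHC class II and endothelial sums were low in both kinds, 573 and 563 CPM for the former. Set against the same controls, the 49 spots alone gave the fascia fibroblast list a median of -0.88, so its higher level belonged to the C1q-rich spots.

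Across the 267 spots the hypoxia sum had a Spearman correlation of -0.73 with the fascia fibroblast sum and -0.61 with summed C1q. With Arg1 itself the hypoxia sum had -0.08, the monocyte sum 0.42 and the melanocytic sum -0.54. These are descriptions over spots of 1 library that share neighbours and depth, and UMIs per spot had 0.24 with Arg1. The 267 spots were also chosen by their Arg1 level, which narrows its range. Their correlations with Arg1 therefore cannot show whether a list follows Arg1 over the section. Over all 2671 kept spots, thinned to equal depth, the hypoxia genes P4ha2, P4ha1 and Vegfa had 0.54, 0.33 and 0.19 with Arg1. Kdm3a had -0.05.

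The remaining C1q-rich spots filled the range between controls and Arg1-high spots. They were 178 spots with Arg1 below 326 CPM, the median of those with Arg1 outside the Arg1-high group, and 178 above it. From the 94 controls through these bands to the 218 C1q-rich Arg1-high spots, Serpinb2 went 5.95, 6.66, 251 and 394 CPM. Nos2 went 15.5, 11.9, 84.4 and 219.9 CPM. The lower band was thus near the controls and the upper band between. Plvap was lower in each successive band, 812, 443, 44.2 and 8.24 CPM. MHC class II differed mainly in the last group, with sums of 3046, 2724, 2262 and 563 CPM. Retnla was highest in the upper band, at 206 CPM against 134 in controls and 67.6 in the last group.

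Distance from the Arg1-high spots gave gene groups different profiles. Arg1 was at 4198 CPM within them, 1259.8 in the 146 spots 1 step away, 415 at 2 steps and 187 at 3 steps. Serpinb2 was level over the first step, with 467 and 468 CPM, and was at 97.4 CPM at the second. Egln3 was at 171, 184 and 76.8 CPM. The hypoxia and glycolysis sums were higher 1 step outside than inside, 3575 against 2732 and 13347 against 8750.1 CPM. Htra3 and the fascia fibroblast sum were lower outside, going from 2824 to 803 and from 6489 to 3212 CPM at the first step. Endothelial sums went from 182 through 355 to 787 CPM and then stayed between 692 and 848 CPM. The melanocytic sum went from 4037 to 18355 and 32497 CPM over the same steps.

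**Figure D4:**
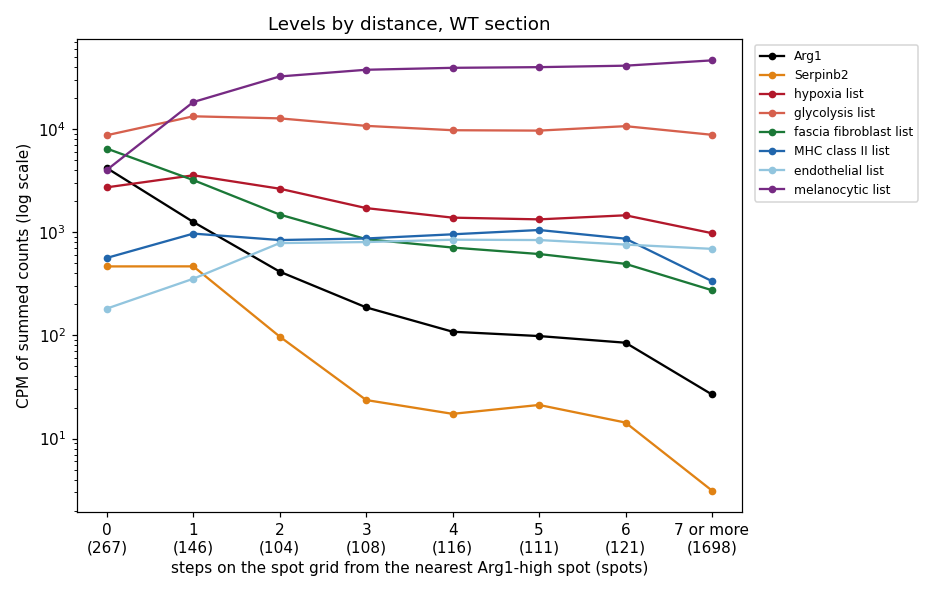
Lines give the CPM of summed counts on a log axis against the number of grid steps from the nearest Arg1-high spot, with the number of spots under each step. Arg1 goes from 4198 to 1259.8 CPM at the first step, where Serpinb2 is level and the hypoxia list is at its highest, 3575 CPM.

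Genes with the spot pattern most like that of Arg1 were found by Spearman correlation over all 2671 kept spots, each thinned to 5000 UMIs. The 6 highest were Rarres2 (0.75), Fbln2, a fibulin of elastic matrix (0.74), Lox, the enzyme that cross-links collagen (0.74), Fn1 (0.73), Pdpn, a glycoprotein of stromal cells (0.72), and Dcn, a collagen-binding proteoglycan (0.72). Neighbouring spots share cells and RNA, so the coefficients describe layout in 1 section.

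The patches of 230 and 17 spots differed in level. Htra3 was at 3012 CPM in the larger and 670.3 in the smaller, Egln3 at 155 and 543, and the hypoxia sum at 2671 and 4253 CPM.

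In the KO section the top 10% by Arg1 were 239 spots, starting at 125 CPM and as few as 1 Arg1 UMI, with a median of 248 CPM. That median is below the lowest WT value, and the 280 controls were deeper, at a median of 31368 against 13508 UMIs per spot. The KO groups were not matched on C1q, whose summed level had medians of 2112 in Arg1-high and 1029 CPM in control spots, and 75 KO controls touched an Arg1-high spot, against 0 in WT. Of 8803 measured genes 305 (3.46%) stood 2-fold or more above their controls and 156 (1.77%) as far below. The same direction held for most genes higher in WT: of 266 measured in both sections, 263 were above 1 and 140 at least 2-fold higher in KO, against 2600 and 252 of all 5260 genes measured in both. Of 474 lower genes measured in both, 383 were below 1 and 40 at least 2-fold lower, against 2660 and 50 of all.

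Values side by side were smaller in the KO section for each of the 15 genes with the highest WT ratios. Smaller ratios in another section are expected from that choice alone, so the uniform drop is no result about genotype. Serpinb2 was at 78.5 in WT and 13.3 in KO, Egln3 at 24.0 and 6.36, Nos2 at 18.0 and 5.67 and Ndufa4l2 at 14.1 and 5.24. Tnc, outside those 15, had the larger ratio in KO, 5.57 against 1.23. Hypoxia genes were at least 2-fold higher for 13 of 14 in KO (median 1.97). All 10 measured endothelial genes were below 1 in KO, 9 of them at least 2-fold lower (median -1.49), with Plvap 3.11-fold lower. The MHC class II list had a median of 0.06 with 0 of 6 genes past 2-fold, Cd74 being at 1.08 times its controls. These differences between sections, and the part of depth, C1q and position in them, were not tested.

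**Figure D5:**
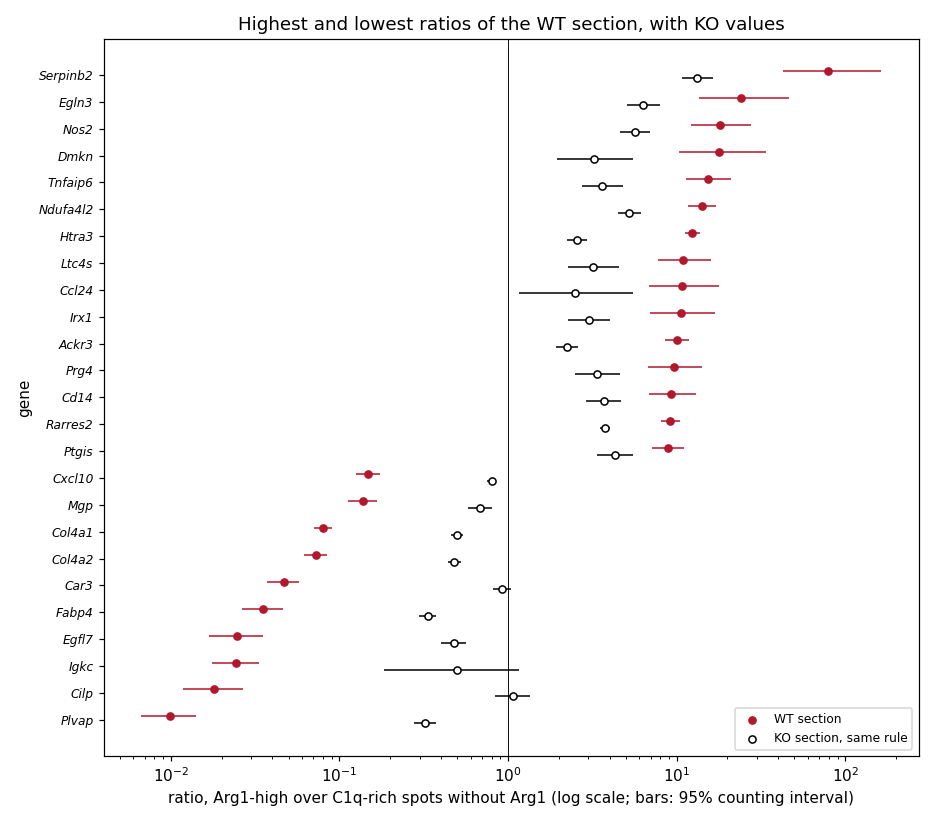
For the 15 highest and 10 lowest ratios of the WT section, filled points give the ratio of Arg1-high over control spots in WT and open points the same in KO, on a log axis with 95% counting intervals as bars. All 15 higher genes lie above 1 in both sections, and Plvap lies at 0.00985 in WT and 0.322 in KO. The genes were chosen by their WT ratios, so less extreme KO ratios are expected from the choice.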

How the data were processed

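Visium CytAssist libraries of 2 formalin-fixed tumour sections, 1 per genotype, were analysed. The deposited values are raw UMI counts for every gene in every spot, from Space Ranger 2.1.0, per the file headers; the submitters' processing notes name mm10. Spots under 5000 UMIs were left out, counts were summed over the spots of each group, and ratios of CPM were given exact (Clopper-Pearson) 95% intervals, which cover counting error only. A gene was called at a ratio of 2 in either direction if it had 200 UMIs over both groups; log2 values had 0.5 added to each count. No test was run. Named were the genes of the rule, the 15 highest and 10 lowest ratios at 500 UMIs or more, the 3 most abundant measured genes of each list with its highest and lowest ratio, and the 6 genes closest to Arg1. Symbols of predicted genes were left out of the 15 and 10. The Arg1 rule for controls asks for levels below a median that was 0, and was read as at the median. Spots are mixtures and no doublet caller was run. The sections share 2138 spot barcodes, which are grid positions. The spots and the 40 gene lists were chosen with earlier results of these data known. Interval coverage was tested on simulated data. Python 3.11.15, R 4.3.3 and edgeR 4.0.16 (TMM factors) were used.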

Additional observations from a re-analysis of the deposited data

Results flagged for a closer look

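Retnla, a secreted protein typical of interleukin 4 exposure, differed in direction between the sections. In the WT section the Arg1-high spots were lower than the controls, with 209 against 226 UMIs, a ratio of 0.401 (95% interval 0.331 to 0.486). In the KO section they were higher, with 172 against 173 UMIs and a ratio of 2.05 (95% interval 1.65 to 2.54). The difference between the sections was not tested, since each is 1 sample. Within the WT section the ratio was 0.174 in one quadrant and 23.6 in another. Of the genes measured in both sections, 7 others were at least 2-fold lower in WT and 2-fold higher in KO, among them the intermediate filament gene Nes (0.251 and 2.69) and the smooth muscle myosin light chain gene Myl9 (0.281 and 4.39), both picked after their values were seen.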

How the results depend on the processing

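The counts of higher and lower genes, 363 and 480, depended on the controls, the depth limit and the scaling. They were 572 and 977 with a minimum of 10000 UMIs per spot, 1555 and 3619 with all spots without Arg1 as controls, 1152 and 2838 with controls from the 50th C1q percentile, 621 and 224 with TMM factors, 611 and 235 with size factors, 184 and 100 after thinning to 5000 UMIs, and 550 and 1328 for genes with 50 UMIs or more. Lower genes alone were 203 with the top 20% of spots, 160 at 500 UMIs or more, and 295 or 256 without one or the other of the quadrants that hold most controls. Further alternatives were chosen after seeing the data. They gave 924 lower genes with all C1q-rich spots outside the Arg1-high group as controls, 185 lower in 1 quadrant alone, 108 higher in the smaller patch, 134 and 49 in an equal fibroblast range, and 157 and 237 for the Arg1-high spots below the C1q percentile.

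Against all spots without Arg1 these turned higher: the MHC class II list (median log2 ratio 1.49), the adipocyte list (0.62), and the ratios of Car3 (1.53), Ccl8 (3.68), Cd74 (2.66), Clec10a (6.35), H2-Aa (2.09), H2-Ab1 (3.31), H2-Eb1 (3.31), Lpl (1.84), Retnla (13.3) and Selenop (3.68). From the 50th C1q percentile it was the MHC class II list (0.041), Ccl8 (1.24), Clec10a (2.02), H2-Ab1 (1.14), H2-Eb1 (1.14), Retnla (3.29) and Selenop (2.16). Retnla was also at 1.16 with a minimum of 10000 UMIs, and Selenop at 1.33 in the smaller patch. In the equal fibroblast range Col1a1 (0.871) and Col1a2 (0.914) turned, where matching on their own list pulls these abundant genes toward 1. In the spots below the C1q percentile the fascia fibroblast list (-0.88), Clec3b (0.486) and Dpt (0.527) turned. The causes were not tested. Limiting both groups to spots rich in melanocytic genes left 0 Arg1-high and 2 control spots and gave no value. No paired analysis was possible because each genotype has 1 section and the result comes from no test. Genes under 200 UMIs over both groups are limited by depth.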
